A study of Mus musculus with 18 samples.

Results

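The 10 genes *Ccnd1*, *Ccnd2*, *Ccnd3*, *Cdk4*, *Cdk6*, *Cdkn1a*, *Cdkn1b*, *Cdkn2c*, *Cdkn2d* and *Rb1* encode the D cyclins, their kinases CDK4 and CDK6, the inhibitors of those kinases and the retinoblastoma protein. They were chosen by symbol, a rule that uses no measured value, although earlier results of these data were known. They make up 10 of the 50600 gene identifiers in the count table. All 10 were detected, although *Cdkn1a* had too few counts in thymic regulatory T cells (Tregs) to be tested there.

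D cyclins are made when a cell receives growth factor or cytokine signals. They bind CDK4 or CDK6, and the active kinases phosphorylate the retinoblastoma protein, which then releases E2F transcription factors and lets the cell move from G1 into S phase. The INK4 inhibitors p18 (*Cdkn2c*) and p19 (*Cdkn2d*) bind the kinases themselves, whereas p21 (*Cdkn1a*) and p27 (*Cdkn1b*) bind cyclin–CDK complexes, and p27 is known for keeping resting T cells out of the cycle. IL-2 is known as a signal that drives activated T cells through this step.

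RNA-seq counts came from FACS-purified Tregs of 18 C57BL/6 mice. The thymic CD25 KO group consisted of 5 CD25flox/Foxp3-YFP/Cre mice at 3–4 weeks of age, in which Cre is made from the *Foxp3* locus and removes an exon of *Il2ra*, the gene of CD25, the IL-2 receptor α chain. They were “cured” of autoimmunity, having been given WT splenocytes intravenously as newborns. Their controls were 5 Foxp3/RFP reporter mice of the same age with WT CD25, so the thymic groups also differ in their *Foxp3* reporter allele and in the transferred cells. The splenic CD25 KO group consisted of 4 CD25flox/Foxp3eGFP-Cre-ERT2/R26Y mice, in which tamoxifen activates Cre in cells expressing *Foxp3* and switches on YFP, and the splenic WT group of 4 reporter controls that also received tamoxifen. Tamoxifen was given at 7–10 weeks of age and cells were collected 10–14 days later. The column names carry a different date for each tissue, without saying of what, so tissue, that date, mouse model and age cannot be told apart.

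Total counts ranged from 17239774 to 23993674 per thymic and from 25258341 to 32639570 per splenic library, and 3 counts, taken as the detection floor, came to at most 0.162 CPM (a count over the TMM-scaled size of its library, with all 18 libraries scaled together), which covers counting error only. *Il2ra* was lower in every CD25 KO library than in any WT library of its tissue, with 95.2–288 against 526–683 CPM in the thymus. Treg markers were present throughout, with 3000–4280 CPM summed over 7 genes, but 4 of the 7 were called lower in the thymus and 2 lower and 3 higher in the spleen. *Foxp3*, which defines Tregs, was 401–579 CPM in thymic WT against 274–346 CPM in thymic CD25 KO mice (log2 fold change -0.74, adjusted p = 0.00101), and 319–340 against 206–237 CPM in the spleen (-0.55, adjusted p = 6.9e-06). Thymic CD25 KO mice 2 and 4 stood apart. Their *Il2ra* was 236–288 CPM against 95.2–105 CPM in mice 1, 3 and 5, and *Mki67*, a proliferation marker, was 350–521 against 70.1–105 CPM. The part of these libraries in the results was not tested, and values are given below with and without them where they bear on a result. Since they were set apart after their values had been seen, a fold change without them is a description, with no test, for any gene that separates them from the other 3. Finally, 41 genes with a mean thymic count of at least 100 were listed at 0 in every splenic library, none of them among the 10.

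Promoter sequences are shown for 3 of the genes that separated thymic CD25 KO mice 2 and 4 from the others, *Cdk4*, *Cdk6* and *Cdkn2c*, because each has a window holding the E-box CACGTG, the core site bound by MYC and related factors. RefSeq windows (GRCm38.p6) run from 250 bases before to 50 bases after a transcript start, and 7 of the 10 genes matched, with 10 windows. *Ccnd1*, *Ccnd2* and *Rb1* had no window and could not be searched, and *Rb1* also separated mice 2 and 4. The 3 genes shown were picked for holding the motif, so its presence in them is no result. The lines give chr10:127063285-127063584 (plus strand) for *Cdk4*, chr5:3343643-3343942 (plus strand) for *Cdk6* and chr4:109665323-109665622 (minus strand), the second of its listed windows, for *Cdkn2c*, 5′ to 3′, with each E-box in capitals.
Cdk4: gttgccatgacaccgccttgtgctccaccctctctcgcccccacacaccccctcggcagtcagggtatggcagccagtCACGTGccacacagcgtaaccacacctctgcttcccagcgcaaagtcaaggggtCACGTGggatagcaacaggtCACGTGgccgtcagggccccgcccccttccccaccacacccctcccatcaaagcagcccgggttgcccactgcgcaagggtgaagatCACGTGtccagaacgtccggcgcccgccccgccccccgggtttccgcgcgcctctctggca
Cdk6: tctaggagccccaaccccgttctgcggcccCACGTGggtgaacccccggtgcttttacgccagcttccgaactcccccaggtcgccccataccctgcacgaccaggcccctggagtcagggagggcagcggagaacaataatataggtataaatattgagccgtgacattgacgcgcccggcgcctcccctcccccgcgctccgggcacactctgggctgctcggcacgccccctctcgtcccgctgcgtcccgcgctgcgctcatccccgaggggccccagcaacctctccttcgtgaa
Cdkn2c: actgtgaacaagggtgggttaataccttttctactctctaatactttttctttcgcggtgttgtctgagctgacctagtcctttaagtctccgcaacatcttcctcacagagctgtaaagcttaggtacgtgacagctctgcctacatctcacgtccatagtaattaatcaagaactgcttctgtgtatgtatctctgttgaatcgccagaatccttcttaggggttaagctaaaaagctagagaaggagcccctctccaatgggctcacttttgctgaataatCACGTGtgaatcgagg
The *Cdk4* window holds 4 E-boxes, beginning 172, 118, 98 and 11 bases before the start. At least 1 E-box occurs in 7.15% of the 32851 windows searched, and at least 4 in 8 windows, or 0.0244%. The *Cdk6* window holds 1, beginning 220 bases before the start, and the *Cdkn2c* window holds 1, beginning at base 34 after it, whereas the other *Cdkn2c* window and the windows of *Cdkn1a* hold none. On both strands, the E2F sites TTTCGCGC, TTTGGCGC and TTTCCCGC (found in 0.323%, 0.514% and 1.07% of windows) and the STAT site TTCNNNGAA (8.3%) matched none of the 10 windows, and the forkhead site GTAAACA (3.65%) matched 1 window, of *Ccnd3*. These are matches of letters, with no measure of binding.

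Compared per kb of exon, *Ccnd2* was the most abundant of the 10 RNAs in both thymic groups and in splenic WT Tregs. In thymic WT Tregs its level was 136 CPM per kb (range 124–157), followed by *Cdkn1b* at 58.8, *Ccnd3* at 43, *Cdkn2d* at 37.7, *Rb1* at 35.4 and *Cdk4* at 29.2 CPM per kb. The ranges of *Ccnd3*, *Cdkn2d*, *Rb1* and *Cdk4* overlapped from one to the next. *Cdk6* at 10.1, *Cdkn2c* at 5 and *Ccnd1* at 1.4 CPM per kb came below them, and *Cdkn1a* was lowest at 0.168 CPM per kb. Splenic WT Tregs had *Ccnd2* at 86.2 and *Cdkn1b* at 51.8 CPM per kb, then *Cdk4* at 24.3, *Cdkn2d* at 23 and *Ccnd3* at 21.5 CPM per kb with overlapping ranges, and *Cdkn1a* at 0.612 CPM per kb. In splenic CD25 KO Tregs the order at the top was different, with *Cdkn1b* at 59 (54–66.5) and *Ccnd2* at 57.7 (51.7–67.2) CPM per kb, whose ranges overlapped.

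**Figure D1:**
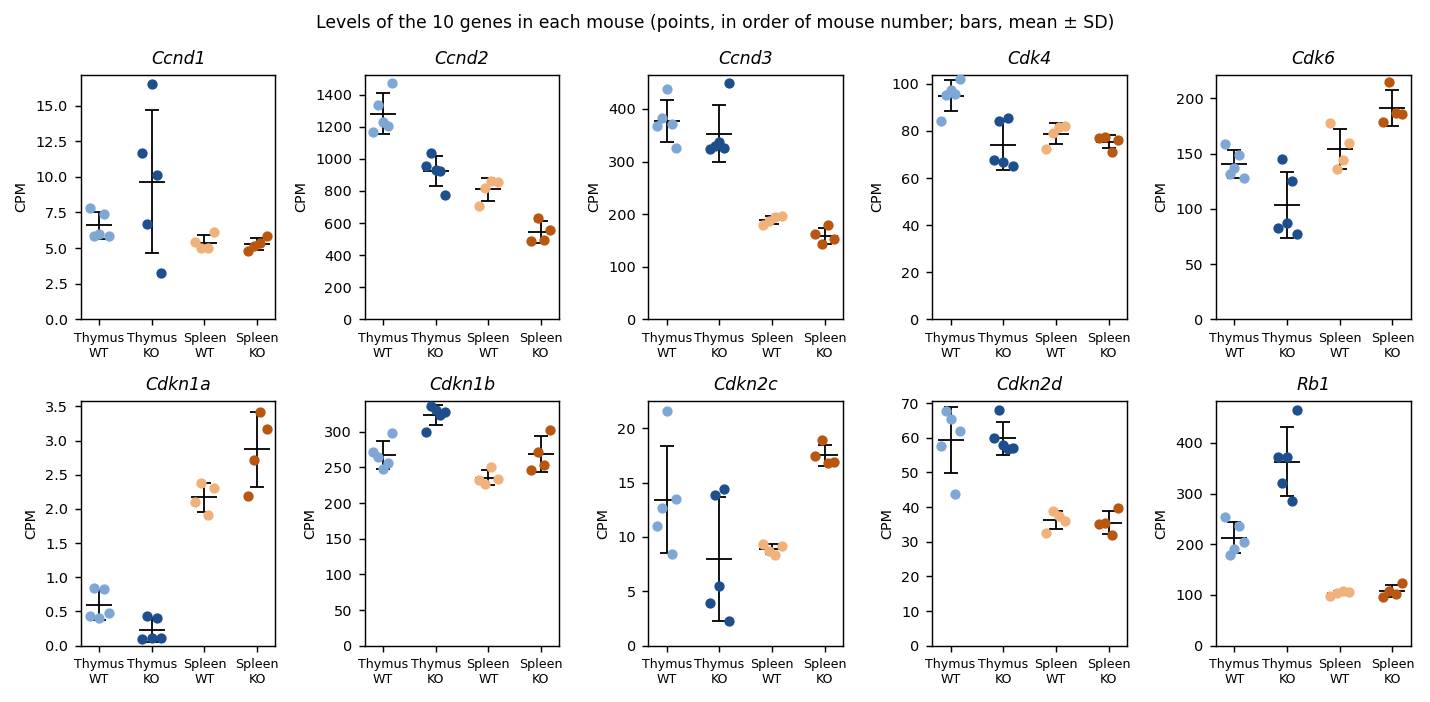
Level of each of the 10 genes (CPM, linear axis from 0) in every mouse, by tissue and genotype. Points are mice, in order of their number, and bars give mean ± SD (n = 5 mice per thymic and 4 per splenic group). *Ccnd2* is lower in every CD25 KO mouse than in any WT mouse of its tissue, and *Cdkn2c*, *Cdk4*, *Cdk6* and *Cdkn1a* fall into 2 sets among the thymic CD25 KO mice.

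Cyclin D2 RNA was lower in CD25 KO Tregs of both tissues, in every mouse. Thymic WT Tregs had *Ccnd2* levels of 1166, 1337, 1227, 1202 and 1475 CPM in mice 1 to 5, and thymic CD25 KO Tregs 955, 1034, 927, 927 and 775 CPM. The lowest WT mouse lay above the highest CD25 KO mouse. The fall was 0.47 on the log2 scale (log2 fold change -0.47, SE 0.084, adjusted p = 0.00427, edgeR quasi-likelihood F test, Benjamini-Hochberg over all genes), which passes the threshold of FDR < 0.01 used throughout. In the spleen, *Ccnd2* was 707, 820, 860 and 859 CPM in WT mice and 487, 633, 495 and 557 CPM in CD25 KO mice, again without overlap. There the log2 fold change was -0.59 (SE 0.0793, adjusted p = 9.08e-05), or 0.663 of the WT level. The size of the change did not pass the test of a difference between tissues (spleen minus thymus -0.11 on the log2 scale, SE 0.129, adjusted p = 0.581). As in any bulk sample, fewer cells expressing a gene and less RNA per cell cannot be told apart. The thymic call was lost (adjusted p 0.01–0.0146) when WT mouse 2, 3 or 5 or CD25 KO mouse 1 or 3 was left out, and was retained without CD25 KO mice 2 and 4 (-0.52, adjusted p = 0.00295).

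*Ccnd3*, the other D cyclin at an appreciable level in these cells, was lower in every splenic CD25 KO mouse than in any WT mouse. Splenic levels were 179.4, 186, 194 and 196 CPM in WT mice and 162, 143, 179.3 and 152 CPM in CD25 KO mice, with the nearest mice almost equal. The log2 fold change of -0.26 (SE 0.0653) had an adjusted p of 0.0114 and was not called by edgeR. It was called by DESeq2 (adjusted p = 0.00345), by edgeR with no filter on low counts (adjusted p = 0.000544) and without CD25 KO mouse 3 (adjusted p = 0.00135). *Bysl*, which shares 361 bases with *Ccnd3* on the opposite strand, was called lower in the spleen (-0.40, adjusted p = 0.0024), and reads of overlapping genes could not be separated without knowing the strand setting. In the thymus, *Ccnd3* ranged over 326–438 CPM in WT mice and 324–450 CPM in CD25 KO mice (log2 fold change -0.09, SE 0.1, adjusted p = 0.541). *Ccnd1*, the least abundant D cyclin, had 61 to 306 counts per thymic library, and *LTO1*, which shares 1100 bases with it on the opposite strand, had group means of 26.5–28 CPM. Its thymic CD25 KO values were 11.7, 6.69, 16.5, 10.1 and 3.25 CPM against 5.86–7.8 CPM in WT, a spread wider than the difference (0.56, SE 0.321, adjusted p = 0.221). Splenic *Ccnd1* was 4.98–6.13 CPM in WT mice and 4.78–5.86 CPM in CD25 KO Tregs (-0.04, adjusted p = 0.869).

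The D cyclin RNAs summed in the thymus to 181 ± 11.3 CPM per kb without and 140 ± 5.34 with the deletion of CD25 (SD, n = 5), and in the spleen to 109 ± 8.46 and 77 ± 5.77 CPM per kb (SD, n = 4). *Ccnd2* made up 75.3% ± 3.17 and 69.8% ± 4.91 of that sum in the thymus and 79.1% ± 0.977 and 74.8% ± 3.79 in the spleen. These sums and shares are descriptions with no test.

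The kinase genes divided the thymic CD25 KO mice. *Cdk4* was 84.4, 95.2, 97.5, 95.7 and 102 CPM in thymic WT mice and 67.6, 84.3, 66.7, 85.6 and 64.9 CPM in thymic CD25 KO mice. CD25 KO mice 2 and 4 lay at about the level of the lowest WT mouse and the other 3 below it. Over all 10 mice the log2 fold change was -0.36 (SE 0.0876, adjusted p = 0.015), short of the threshold. DESeq2 called it with all mice (adjusted p = 0.00239). Among fits without 1 mouse, edgeR passed the threshold only without mouse 4. That mouse is one of those set apart, and *Cdk4* separates them, so this is a description with no test. Without mice 2 and 4 the log2 fold change was -0.51. *Tspan31* shares 641 bases with *Cdk4* on the opposite strand and showed a log2 fold change of -0.29 (adjusted p = 0.104) in the thymus. In the spleen, *Cdk4* overlapped between genotypes at 72.3–82.2 and 71.2–77.6 CPM (-0.08, SE 0.0538, adjusted p = 0.377).

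*Cdk6* had the same split in the thymus and lay higher in every splenic CD25 KO mouse. Thymic values were 158.5, 132, 137, 148 and 128.1 CPM in WT mice and 82.7, 145, 87.2, 125.5 and 77.3 CPM in CD25 KO mice, in which mice 2 and 4 lay close to or within the WT range and the other 3 far below it. The log2 fold change was -0.44 (SE 0.156, adjusted p = 0.0603) with all mice and -0.76 without mice 2 and 4. Splenic *Cdk6* was 177, 136, 144 and 160 CPM in WT mice and 178, 215, 187 and 186 CPM in CD25 KO mice, all of the latter above the highest WT mouse. Its log2 fold change of 0.30 (SE 0.077, adjusted p = 0.0143) was not called by edgeR. It was called by DESeq2 (adjusted p = 0.00473), by edgeR with no filter on low counts (adjusted p = 0.000143) and without WT mouse 1 (adjusted p = 0.00214). The difference between tissues was 0.75 (SE 0.195), short of the threshold in edgeR (adjusted p = 0.0131) but called by DESeq2 (adjusted p = 0.00269) and by edgeR with no filter (adjusted p = 0.00602). Without thymic CD25 KO mice 2 and 4 it was 1.06. Per kb, *Cdk6* made up 25.7% ± 2.97 and 24.2% ± 2.82 of the summed kinase RNA in the thymus (WT, then CD25 KO), and 31.3% ± 3.52 and 37% ± 1.81 in the spleen.

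*Cdkn2c*, which encodes p18INK4c, gave the largest change of the 10 in the spleen. Splenic WT mice had 9.31, 8.73, 8.32 and 9.14 CPM and CD25 KO mice 17.4, 18.9, 16.8 and 16.9 CPM. The groups were far apart and each was narrow. The log2 fold change was 0.97 (SE 0.0846, adjusted p = 1.86e-06), a 1.95-fold higher level, and it was called in each fit that left out 1 mouse. Among the alternatives run, the call was lost only when the spread was estimated from all 18 libraries together (adjusted p = 0.109). In the thymus *Cdkn2c* was 11, 12.7, 21.5, 8.43 and 13.5 CPM in WT mice and 3.94, 13.8, 5.5, 14.4 and 2.29 CPM in CD25 KO mice. Mice 2 and 4 lay within the WT range and the other 3 below it. No change was called with all mice (-0.73, SE 0.43, adjusted p = 0.234), and the log2 fold change without mice 2 and 4, chosen as they were, was -1.77. The difference between tissues was 1.71 (SE 0.496, adjusted p = 0.0228), was called with no filter on low counts (adjusted p = 0.00945), and was 2.74 without those 2 mice.

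*Cdkn2d*, the other INK4 gene, was higher per kb than *Cdkn2c* in every group, and no change passed the test in either tissue. It was 43.8–67.8 CPM (WT) and 56.7–67.9 CPM (CD25 KO) in the thymus (log2 fold change 0.02, SE 0.101, adjusted p = 0.911). In the spleen it was 32.6–38.9 and 32–39.8 CPM (-0.04, SE 0.0719, adjusted p = 0.752).

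Of the genes for p21 and p27, *Cdkn1b* was abundant and *Cdkn1a* scarce. *Cdkn1b* was 272, 265, 247, 256 and 298 CPM in thymic WT mice and 299.8, 336, 330.1, 324 and 328 CPM in thymic CD25 KO mice. Every CD25 KO mouse lay above every WT mouse, though the nearest pair stood at 298 and 299.8 CPM. It was called higher by a small amount (0.28, SE 0.0578, adjusted p = 0.00756). The call was lost in 9 of 10 fits that left out 1 mouse (adjusted p up to 0.0238, all but the fit without WT mouse 5), without mice 2 and 4 (0.27, adjusted p = 0.0196) and after removal of each library's trend with GC content (0.16, adjusted p = 0.0841). In the spleen *Cdkn1b* overlapped, at 226–250 CPM in WT mice and 246–303 CPM in CD25 KO mice (0.17, SE 0.0594, adjusted p = 0.0562).

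*Cdkn1a* had 9, 20, 9, 18 and 11 counts in thymic WT libraries and 2, 9, 2, 9 and 2 counts in thymic CD25 KO libraries. Mice 1, 3 and 5 were under the floor of 3 counts, and mice 2 and 4 lay within the WT range. With no filter on low counts the log2 fold change was -1.32 (SE 0.456, adjusted p = 0.0732), at a depth that barely measures the gene. In the spleen it was 2.1, 2.38, 1.91 and 2.31 CPM in WT mice and 2.19, 2.71, 3.41 and 3.17 CPM in CD25 KO mice, from 45 to 99 counts. The groups overlapped (0.39, SE 0.178, adjusted p = 0.16). The difference between tissues was 1.71 (SE 0.452, adjusted p = 0.0138, and 0.0021 in DESeq2), a value that the thymic counts of 2 to 20 leave poorly measured, and none is given without mice 2 and 4, since the remaining thymic CD25 KO libraries are all under the floor.

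Per kb, the 4 inhibitor RNAs summed in the thymus to 102 ± 8.68 CPM per kb for WT and 112 ± 6.3 for CD25 KO mice (SD, n = 5), and in the spleen to 78.7 ± 2.7 and 88.9 ± 7.42 CPM per kb (SD, n = 4). *Cdkn1b* made up 58–66.3% of the sum on average in each group, and *Cdkn2c* took 4.21% ± 0.343 of the splenic sum for WT and 7.37% ± 0.688 for CD25 KO mice. The ratio of D cyclin to inhibitor RNA per kb was 1.67–1.96 against 1.22–1.34 in the thymus (WT, then CD25 KO mice) and 1.28–1.47 against 0.786–0.94 in the spleen. Neither pair of ranges overlapped. The ratio is a description built from RNA levels and carries no test.

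**Figure D2:**
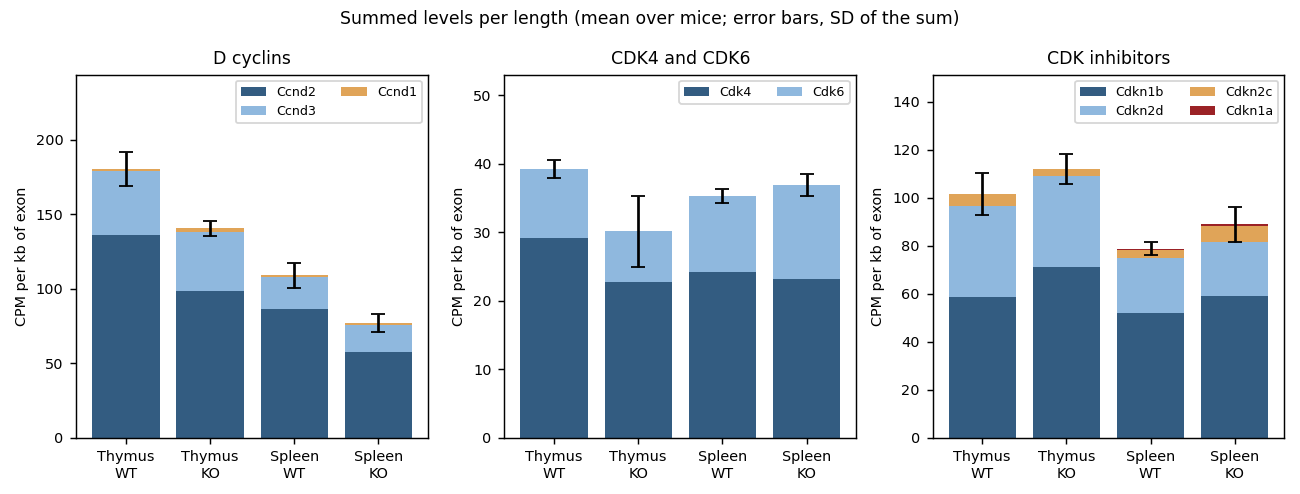
Summed RNA per kb of exon (CPM per kb, linear axis from 0) for D cyclins, for CDK4 and CDK6, and for the 4 inhibitors. Stacked bars are group means and error bars the SD of the sum over mice (n = 5 thymic, 4 splenic). The D cyclin sum is 181 (WT) and 140 (CD25 KO) CPM per kb in the thymus and 109 and 77 in the spleen, and is made mostly of *Ccnd2*.

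*Rb1* was the member with the largest called change in the thymus, and the one whose change differed between tissues at the threshold in edgeR. DESeq2 called *Cdk6* and *Cdkn1a* for that difference too, and edgeR with no filter on low counts *Cdk6* and *Cdkn2c*. Thymic levels were 255, 180, 191, 236 and 204 CPM in WT mice and 372, 320, 371, 284 and 464 CPM in CD25 KO mice, with no overlap. The level was 1.71-fold higher (log2 fold change 0.77, SE 0.129, adjusted p = 0.00309), and the log2 fold change was 0.93 without mice 2 and 4, which were the lowest CD25 KO mice. With WT mouse 3 left out the thymic adjusted p was 0.0102, and with GC trends removed the log2 fold change was 0.55 (adjusted p = 0.00372). Splenic *Rb1* was 99, 104, 108 and 105 CPM in WT mice and 95.3, 108, 102 and 124 CPM in CD25 KO mice (0.03, SE 0.0648, adjusted p = 0.796). The difference between tissues was -0.73 (SE 0.163, adjusted p = 0.00494), and it was lost in 10 of the 18 fits without 1 mouse (adjusted p 0.0105–0.0133 for thymic WT mouse 2, 3 or 5, thymic CD25 KO mouse 3, splenic WT mouse 2, 3 or 4, or splenic CD25 KO mouse 1, 2 or 3). Both genes with exons on the opposite strand of *Rb1*, *Rcbtb2* (488 shared bases; 0.41, adjusted p = 0.000813) and *Lpar6* (408 shared bases; 0.64, adjusted p = 0.00397), were also called higher in the thymus.

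**Figure D3:**
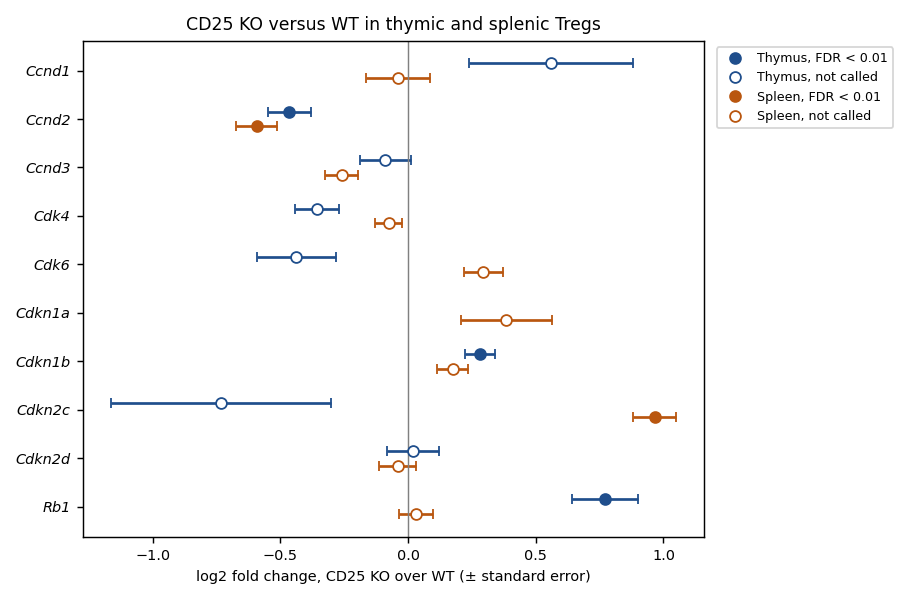
Log2 fold change of CD25 KO over WT (x axis, ± standard error) for each gene, with thymic values in blue and splenic values in orange. Filled points pass FDR < 0.01 in edgeR (*Ccnd2*, *Cdkn1b* and *Rb1* in the thymus, *Ccnd2* and *Cdkn2c* in the spleen), and *Cdkn1a* has no thymic point because it was not tested there.

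Counted together, 3 of the 9 members tested in the thymus were called, 2 higher and 1 lower, where 6.16% of the 16986 genes tested were called (3.17% higher and 2.99% lower). In the spleen 2 of 10 were called, 1 in each direction, against 9.45% of 17463 genes (5.9% higher and 3.55% lower). The genotype groups did not overlap for 3 members in the thymus and 4 in the spleen, where 15.8% and 20.2% of all tested genes did not overlap. For the difference between tissues 1 of 10 was called, against 6.98% of 18686 genes (4.5% higher and 2.49% lower). The members had a median log2 fold change of -0.09 (thymus) and 0 (spleen), beside -0.0022 and -0.0065 over all genes. Without thymic CD25 KO mice 2 and 4, 5 members were called in the thymus, where 11.5% of 17433 genes were called, and 5 in the difference between tissues, where 12.2% of 18972 were. Of the former 4 (*Cdk4*, *Cdk6*, *Cdkn2c* and *Rb1*) and of the latter all 5 (these and *Cdkn1a*) separate the mice left out, so these counts are descriptions. Leaving out mouse 2 alone or mouse 4 alone gave 4 members in the difference, *Cdk6*, *Cdkn1a*, *Cdkn2c* and *Rb1*. The share of all genes called in those 2 fits was not computed. All 4 genes separate mice 2 and 4, so this count too is a description. At FDR < 0.05, 4 members passed in each comparison, where 23.3%, 17.2% and 16.9% of genes did in the thymus, the spleen and the difference. DESeq2 at FDR < 0.01 called 4 members in the thymus (*Ccnd2*, *Cdk4*, *Cdkn1b* and *Rb1*; 15.9% of genes) and 4 in the spleen (*Ccnd2*, *Ccnd3*, *Cdk6* and *Cdkn2c*; 11%).

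Proliferation markers divided the thymic CD25 KO mice in the same way as several of these genes. Summed over 25 genes, they came to 1330–2340 CPM in thymic WT mice, 2108 and 1787 CPM in thymic CD25 KO mice 2 and 4, and 705, 739 and 625.5 CPM in mice 1, 3 and 5. In the thymus edgeR called 0 of the 25 and DESeq2 also 0, with 6 at an unadjusted p under 0.05. At least 23.3% of all genes in the thymus and 17.2% in the spleen had such a p, since that many passed FDR < 0.05. All 25 markers had a negative log2 fold change in the thymus, with a median of -0.61, beside -0.0022 over all genes. The median was -1.58 without mice 2 and 4, whose high marker levels set them apart, so that value is no test. In the spleen the sums were 725–789 CPM in WT mice and 958–1120 CPM in CD25 KO mice, and 14 of 24 tested markers rose and none fell, where 5.9% of all genes were called higher and 3.55% lower. Among them were *Hmmr* (1.27), *Ccnb2* (1.20) and *Ccnb1* (1.02 on the log2 scale), which act in mitosis. *Cdkn2c* was low where this sum was low among the thymic CD25 KO mice, and higher in the spleen together with it. The part of proliferating cells in the values of *Cdkn2c*, *Cdk4*, *Cdk6*, *Cdkn1a* and *Rb1* was not tested.

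**Figure D4:**
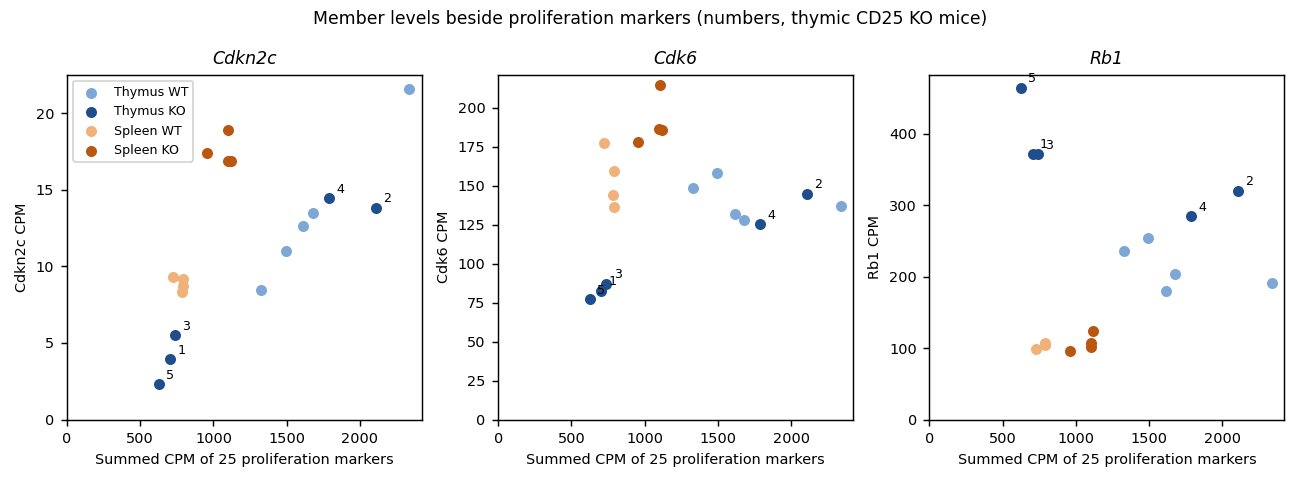
Levels of *Cdkn2c*, *Cdk6* and *Rb1* (CPM) against the summed level of 25 proliferation markers (CPM) in the 18 mice, linear axes from 0. Each point is a mouse, coloured by group, and numbers mark the thymic CD25 KO mice. Mice 1, 3 and 5 sit at 625.5–739 CPM of markers with *Cdkn2c* at 2.29–5.5 CPM, and mice 2 and 4 at 1787–2108 CPM with *Cdkn2c* at 13.8–14.4 CPM. The marker *Kif11* was listed at 0 in all splenic libraries.

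Some markers of other cell types also differed between splenic groups. B cell markers summed to 29.6–35.4 CPM (WT) and 39–48.6 CPM (CD25 KO), with 2 of 4 tested genes, *Pax5* and *Cd22*, called higher and none of the 6 listed at 0 in all libraries of a group. Myeloid markers summed to 10.7–17.3 and 16.2–22 CPM, overlapping between genotypes. Of 3 tested, *Lyz2* was called higher (1.03, adjusted p = 0.00132), whereas *Csf1r* (-0.24, adjusted p = 0.41) and *Adgre1* (-0.82, adjusted p = 0.151) had negative log2 fold changes, and 1 of the 6 genes was listed at 0 in all WT libraries. In the thymus, markers of CD8 T cells and immature thymocytes spanned 40.2–172 CPM in WT mice and 45.2–99.7 CPM in CD25 KO mice, B cell markers 11.5–14.3 and 10.5–14.3 CPM, myeloid markers 4.07–21.4 and 2.1–14.1 CPM and erythroid markers 7.99–29.4 and 0.107–34.3 CPM, all overlapping between genotypes. Markers of thymic epithelium and stroma were 6.32–9.02 (WT) and 5.65–10 CPM (CD25 KO) in the thymus. In the spleen they were 7.65–11.2 and 10.8–14.4 CPM, higher in most CD25 KO mice with a small overlap. There 0 of the 2 tested genes were called, *Epcam* (0.39, adjusted p = 0.104) and *Col1a1* (0.35, adjusted p = 0.301). The part of other cell types in the values of the 10 genes was not tested.

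Downstream of the D cyclin step, splenic CD25 KO Tregs had higher RNA for part of the later machinery, with 2 of 6, 2 of 10 and 1 of 2 genes called in the lists below, where 5.9% of all genes were called higher. Of 6 late G1 and S phase cyclin and CDK genes, *Ccna2* (cyclin A2, log2 fold change 0.94, SE 0.145, adjusted p = 0.000311) and *Cdk1* (0.83, SE 0.16, adjusted p = 0.00194) rose. The cyclin E genes *Ccne1* (-0.20, adjusted p = 0.261) and *Ccne2* (0.30, adjusted p = 0.127) and *Cdk2* (-0.09, adjusted p = 0.414) did not pass. Of 10 E2F and DP factor genes, the repressors *E2f8* (1.31, SE 0.181, adjusted p = 0.000118) and *E2f7* (0.72, SE 0.165, adjusted p = 0.00615) rose. *Rbl1*, which encodes the pocket protein p107, also rose (0.28, SE 0.0551, adjusted p = 0.00216), and *Rbl2*, which encodes p130, showed a log2 fold change of 0.19 (adjusted p = 0.0175). In the thymus edgeR called 0 of these 18 genes with all mice, with 1 of 6, 5 of 10 and 0 of 2 at an unadjusted p under 0.05, and DESeq2 called 1, in the E2F list.

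Some genes acting on the stability or assembly of these proteins were called. *Fbxo31*, an F-box gene, fell by 0.34 in the thymus (adjusted p = 0.00567), and *Cks1b*, a cofactor of the ubiquitin ligase for p27, rose by 0.70 in the spleen (adjusted p = 0.005), each as the 1 called of 10 genes for turnover of p27 and cyclin D, close to the 6.16% and 9.45% of all genes called in the thymus and the spleen. Of 5 genes of the CDK-activating kinase and CDK chaperones, *Mnat1* rose (0.41, adjusted p = 0.00532) and *Hsp90ab1*, an HSP90 gene, fell by 0.44 (adjusted p = 0.00241) in the thymus. These were 2 calls of 5, in opposite directions, where 6.16% of all genes were called, with 4 of 5 at an unadjusted p under 0.05. In the spleen edgeR called 0 of the 5, with 1 at an unadjusted p under 0.05 and 1 called by DESeq2. Of the other CDK inhibitor genes, 0 of 2 tested in the thymus and 0 of 3 in the spleen were called by either tool, with 0 and 2 at an unadjusted p under 0.05, and splenic *Cdkn2b* showed a log2 fold change of 1.07 (SE 0.309, adjusted p = 0.0253). The DREAM and MuvB genes gave 0 calls of 8 in either tissue with either tool, with 1 in the thymus and 3 in the spleen at an unadjusted p under 0.05. For each of these lists, at least 23.3% of all genes in the thymus and 17.2% in the spleen had such a p.

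The p53 pathway, which controls *Cdkn1a* among other genes, had 3 of 14 genes called lower in the thymus, where 2.99% of all genes were, *Trp53* itself (-0.30, adjusted p = 0.00635), *Aen* (-0.31, adjusted p = 0.00507) and *Tnfrsf10b* (-0.51, adjusted p = 0.00807). In the spleen 3 of 14 were called, where 9.45% of all genes were. *Pmaip1*, which encodes the BH3-only protein NOXA, rose by 0.81 (adjusted p = 5.02e-05), whereas *Sesn1* fell by 0.59 (adjusted p = 4.58e-06) and *Bbc3*, which encodes PUMA, fell by 0.46 (adjusted p = 0.000566). The median log2 fold change over the 14 genes was -0.14 for thymic and -0.17 for splenic Tregs.

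The genes whose log2 level across the 18 libraries was most like that of a member were named by Pearson's r. This r can reflect tissue, genotype or the split among thymic CD25 KO mice, and carries no test. For *Ccnd2* these were *Rbm38* (r = 0.968), *Aldh2* (0.967) and *Frmd6* (0.955). For *Cdkn2c* they were *Nsd2* (0.953), *Psat1* (0.932) and *Tuba1c* (0.92). *Cdk4* was nearest to *Cdca7* (0.956), *Sesn2* (0.943) and *Nup188* (0.93), and *Cdk6* to *Spock2* (0.942), *Ybx3* (0.941) and *Trim37* (0.939). *Rb1* was nearest to *Mllt3* (0.99), *Arl5b* (0.989) and *Phf14* (0.988), and *Cdkn1b* to *Rap2c* (0.942), *Sptssa* (0.937) and *Morf4l1* (0.937). *Ccnd1* was nearest to *Gm10300* (0.94), *Lair1* (0.882) and *Irf8* (0.846), and *Ccnd3* to *Ccr9* (0.98), *Pik3c2b* (0.979) and *Kcnmb4* (0.978). The nearest genes of *Cdkn1a* were *Ahnak* (0.987), *Vsig10* (0.982) and *Adora2a* (0.982), and those of *Cdkn2d* were *Sptbn1* (0.958), *Ube2e3* (0.955) and *Gatad2b* (0.954).

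In GENCODE M21 (GRCm38), all 10 are protein-coding genes, and their counts are sums over exons, UTRs included. The D cyclin genes lie at chr7:144929931-144939925 (*Ccnd1*, ENSMUSG00000070348.5, minus strand), chr6:127125162-127152193 (*Ccnd2*, ENSMUSG00000000184.12, minus strand) and chr17:47505051-47599691 (*Ccnd3*, ENSMUSG00000034165.16, plus strand). *Cdk4* lies at chr10:127063534-127067920 (ENSMUSG00000006728.12, plus strand) and *Cdk6* at chr5:3341485-3531008 (ENSMUSG00000040274.11, plus strand). The inhibitor genes lie at chr17:29090976-29100727 (*Cdkn1a*, ENSMUSG00000023067.13, plus strand), chr6:134920401-134925513 (*Cdkn1b*, ENSMUSG00000003031.14, plus strand), chr4:109660876-109667189 (*Cdkn2c*, ENSMUSG00000028551.14, minus strand) and chr9:21288410-21291407 (*Cdkn2d*, ENSMUSG00000096472.2, minus strand). *Rb1* lies at chr14:73183673-73325822 (ENSMUSG00000022105.6, minus strand).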

How the data were processed

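RNA-seq of total RNA depleted of ribosomal RNA was done on sorted Tregs, 1 library per mouse, as paired-end reads. Per the labels and the submitters' processing notes, the authors aligned reads to GRCm38 with STAR (2.5.0b), counted them per gene of GENCODE M13 with featureCounts (1.5.0) and deposited raw counts, without normalization. The strand setting is not given in the sources used here. No column was left out. Samples were grouped by the tissue and genotype labels. Symbols, exon lengths and GC content came from GENCODE M21, which names 50376 of 50600 identifiers.

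In R 4.3.3, edgeR 4.0.16 was fitted to the whole table within each tissue (filterByExpr, TMM, quasi-likelihood F test, Benjamini-Hochberg adjustment, FDR < 0.01, the threshold of the study). The study named DESeq2, which was run as an alternative (version 1.42.0). The difference between tissues (spleen minus thymus) was tested in 1 fit of all 18 libraries. SE is the absolute log2 fold change over the root of F. CPM per kb divides by exonic length. On simulated counts the thymic fit recovered 92% of 100 genes changed 2-fold, with 1 false call among 16986, the splenic fit 100% with 3 among 17463, and the difference 83% with 3 among 18686. The changed genes all lay above a minimum level. Changes under 2-fold, the size of every called member change, were not simulated, so their recovery is not known.

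The 10 genes and all lists were chosen with earlier results of these data known. Named beyond the 10 genes are *Il2ra*, *Foxp3*, at most 3 called genes of each list per direction and tissue, and for each member the 3 genes of average log2 CPM of at least 1 with the most similar pattern. *Mki67*, genes overlapping members and list genes given with an adjusted p that missed the threshold were chosen after their values were seen. Alternatives were RLE and upper-quartile scaling, DESeq2, no filter or 10 counts in every library, FDR < 0.05, 1 fit of all libraries, GC offsets, the mouse number as a block and leaving out mice. The thymic mouse numbers in the titles of WT and CD25 KO samples share a number only. Total counts were 17239774 to 32639570 per library, and floors cover counting error only.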

Additional observations from a re-analysis of the deposited data

Results flagged for a closer look

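Of 40 sets of mice checked (each of the 10 genes in each of the 4 groups), 2 held a mouse far from the others, where chance alone gives about 1 in 20. Thymic CD25 KO mouse 5 had 450 CPM of *Ccnd3* against 324–336 CPM in the other 4. Thymic CD25 KO mouse 2 had 67.9 CPM of *Cdkn2d* against 56.7–59.8 CPM in the other 4. The log2 fold change of *Rb1* differed between tissues by -0.73 (spleen minus thymus, adjusted p = 0.00494 in edgeR), being 0.77 in the thymus and 0.03 in the spleen.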

How the results depend on the processing

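The count of members called was 3 in the thymus, 2 in the spleen and 1 for the difference between tissues. Leaving out 1 mouse gave 0–3, 2–3 and 0–4. At FDR < 0.05 the spleen and the difference each had 4. DESeq2 gave 4 in the spleen, where it called 11% of genes, and 3 in the difference. With no filter on low counts there were likewise 4 and 3. The share of all genes called was not computed for DESeq2 in the difference, with no filter or without 1 mouse. Those counts therefore cannot be set against all genes. One fit of all 18 libraries gave 1 in the spleen, and the share of all genes called in that fit was not computed either. Without thymic CD25 KO mice 2 and 4, chosen after seeing the data, the thymus and the difference had 5 each, a description rather than a test, since most of these genes separate the mice left out.

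With the mouse number as a replicate block 0 members were called in the thymus, also with GC offsets (adjusted p 0.0246 for *Ccnd2*, 0.0305 for *Cdkn1b* and 0.0115 for *Rb1* in the block fit). The share of all genes called in the block fits was not computed, so the 0 cannot be set against all genes. Same-numbered mice did not deviate together (r from -0.287 to 0.09), and no WT mouse was most like the CD25 KO mouse of its own number, so the numbers mark no known pairing.

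Signs turned for values near 0. Thymic *Ccnd3* was 0.06 with GC offsets and 0.05 with block and GC offsets. Thymic *Cdkn2d* was -0.07 without WT mouse 4, -0.03 without CD25 KO mouse 2 and -0.02 without mice 2 and 4. Splenic *Rb1* was 0.00 with upper-quartile scaling, -0.03 with GC offsets and -0.04 without CD25 KO mouse 4. Splenic *Cdkn2d* was 0.01 with GC offsets and 0.00 without CD25 KO mouse 3, and splenic *Ccnd1* 0.03 without WT mouse 4 and 0.00 without CD25 KO mouse 1. The difference for *Cdkn2d* was 0.04 without thymic WT mouse 4. Over all fits without 1 mouse, thymic *Cdkn2d* ran from -0.07 to 0.07, splenic *Ccnd1* from -0.09 to 0.03, splenic *Cdkn2d* from -0.09 to 0.00, splenic *Rb1* from -0.04 to 0.08 and the difference for *Cdkn2d* from -0.1 to 0.04. The causes were not tested. Of all member values recomputed, 506 kept direction and side of the threshold, 26 gained a call, 34 lost one and 13 changed sign. Dividing by exon length changes no comparison within a gene. Log2 fold change fell with GC content across genes (rho -0.41 in the thymus, -0.17 in the spleen). Depth limits *Cdkn1a* in the thymus, at 2 to 20 counts.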
